A study of Mus musculus with 30 samples.

Results

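The subject is the family of CaM kinase II genes Camk2a, Camk2b, Camk2d and Camk2g, read in the aortae and kidneys of mice with and without the EGF receptor in vascular smooth muscle. These 4 genes, of the 41128 genes listed for each tissue, were chosen by name and because Camk2b was lower in KO kidneys, so the KO-against-WT values of the kidney are described without a test. Camk2b, Camk2d and Camk2g passed the filter on low counts in the aorta and all 4 genes passed it in the kidney. The values are counts of sequenced RNA per gene, 1 library per mouse and tissue.

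KO mice came from crossing floxed Egfr C57BL/6 mice with Smmhc-Cre C57BL/6N mice, and the labels give C57Bl6J as the strain background of every library. Cre is driven by the promoter of smooth muscle myosin heavy chain and is switched on by tamoxifen, so deletion is directed to smooth muscle cells and other cells of aorta and kidney keep the receptor. WT mice carried the Cre gene without loxP sites, and both genotypes were injected with tamoxifen, 1 mg per day for 5 days. Males then received HFD or SFD (high or standard fat diet) for 18 weeks, starting at 6 weeks of age. The aorta was read in 3 WT-SFD, 4 WT-HFD, 3 KO-SFD and 4 KO-HFD mice and the kidney in 4 mice per group. Total counts per library ran from 6403699 to 13052870 in the aorta, with a median of 8998366, and from 16354880 to 28331314 in the kidney, with a median of 19544128. Aortae and kidneys were sequenced at different places, so they were not fitted together and levels set side by side across them rest on separate sequencing.

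CaM kinase II is a serine/threonine kinase that is switched on when calcium-loaded calmodulin binds it. Its subunits assemble into a large ring-like holoenzyme, and each of the 4 genes codes for 1 kind of subunit: Camk2a for alpha, Camk2b for beta, Camk2d for delta and Camk2g for gamma. An active subunit phosphorylates a threonine on its neighbour, which keeps the kinase active after calcium has fallen. Alpha and beta are best known from neurons, delta and gamma from heart and vascular smooth muscle.

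The stretch of coding sequence around this threonine is shown for Camk2b, Camk2d and Camk2g because it shows how alike and how different the 3 transcripts are for read counting. Each is coding bases 829 to 888 of 1 transcript of GENCODE vM21 (Camk2b-202, Camk2d-221 and Camk2g-201) and lies in 1 exon of GRCm38, at chr11:5988970-5989029 on the minus strand for Camk2b, chr3:126797711-126797770 on the plus strand for Camk2d and chr14:20760412-20760471 on the minus strand for Camk2g. The capitals mark the codon of the threonine. None is printed for Camk2a.
Camk2b: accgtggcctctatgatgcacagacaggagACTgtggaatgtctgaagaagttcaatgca
Camk2d: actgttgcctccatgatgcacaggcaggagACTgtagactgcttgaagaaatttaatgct
Camk2g: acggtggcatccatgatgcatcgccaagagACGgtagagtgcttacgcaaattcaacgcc
Of these 60 bases, 11 differed between Camk2b and Camk2d, 19 between Camk2b and Camk2g and 16 between Camk2d and Camk2g. Over 900 coding bases that hold this stretch identity was 79.9% for Camk2b and Camk2d, 80.1% for Camk2b and Camk2g and 77.2% for Camk2d and Camk2g. The longest run of bases shared by any of their transcripts was 29 (Camk2b and Camk2g), and no window of 100 bases, the length of 1 read, was shared by any of the 3 pairs. No other annotated gene overlapped the exons of the 4 genes.

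The genes lie on different chromosomes. Camk2b (ENSMUSG00000057897) is at chr11:5969644-6066362 on the minus strand, Camk2d (ENSMUSG00000053819) at chr3:126596302-126846326 on the plus strand, Camk2g (ENSMUSG00000021820) at chr14:20734875-20794088 on the minus strand and Camk2a (ENSMUSG00000024617) on chromosome 18, all in GRCm38. Camk2b shares its chromosome with the deleted gene Egfr (ENSMUSG00000020122, chr11:16752203-16918158, plus strand), and the lower coordinates of the genes are 10.783 Mb apart. Levels are given as FPM, fragments per 1000000 of the library's counts in genes that passed the filter, scaled by TMM (trimmed mean of M values). In this unit 3 counts correspond to 0.240 to 0.433 FPM in the aorta and 0.103 to 0.190 FPM in the kidney.

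Egfr, the targeted gene, was read first to check the genotype labels. Aortic Egfr was 46.7, 39.5 and 54.3 FPM in WT-SFD, 26.8, 35.5 and 28.0 FPM in KO-SFD, 65.1, 57.0, 51.2 and 57.0 FPM in WT-HFD and 27.5, 40.6, 39.7 and 33.4 FPM in KO-HFD mice. Within each diet the highest KO value was below the lowest WT value, which was also so for 4.37% of all genes on SFD and 2.03% on HFD. The log2 fold change was −0.64 (SE 0.17) on SFD and −0.70 (SE 0.14) on HFD. Over all 14796 genes these did not pass edgeR's quasi-likelihood test after Benjamini-Hochberg adjustment (adjusted p = 0.547 and 0.129), and on HFD DESeq2 gave an adjusted p of 0.00482. In the edgeR fit without 4 SFD aortae rich in adipocyte markers the adjusted p on HFD was 0.037 at a log2 fold change of −0.70. In the kidney Egfr was 36.9 to 58.4 FPM in WT and 40.5 to 60.8 FPM in KO mice, with overlapping groups, so it does not check the kidney labels.

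Markers of smooth muscle were abundant in the aorta. The 7 markers summed to 9919 to 17909 FPM per aorta, led by Acta2, smooth muscle actin, and to 108 to 159.9 FPM per kidney, led by Smtn. Tagln and Cnn1 were at 0 in all libraries, as were all other genes of chromosome 9 and of chromosomes X, Y and MT in both tables. The last 526 genes of chromosome 8 by position, Tubb3 and Cdh5 among them, were also at 0 in every library of both tissues, so a 0 there is not read as absence. In the kidney the tubule markers Slc34a1 of the proximal tubule and Umod of the thick ascending limb and the podocyte marker Podxl led their lists.

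In bulk RNA, fewer cells of a type and less RNA per cell cannot be told apart. In 4 SFD aortae the 7 adipocyte markers, led by Fabp4, stood above 500 FPM, at 2857 and 2079 FPM in WT-SFD replicates 1 and 2 and 1707 and 603 FPM in KO-SFD replicates 1 and 2, against 38.7 to 159.5 FPM in the other 10 aortae. WT-SFD replicate 1 also had the highest sums of neuron markers (141 FPM) and Schwann cell markers (110 FPM) and the lowest smooth muscle sum, and WT-SFD replicate 2 had the highest sum of cardiac markers (371 FPM). Aortic comparisons with an SFD group rest on these libraries. Leaving all 4 out leaves 1 WT-SFD and 1 KO-SFD aorta, each then assumed by the fit to vary like the other groups, and a number of values are also given without them.

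Camk2b transcripts were scarce in KO kidneys on both diets, and in the aorta the genotypes overlapped. The WT-SFD kidneys held 8.13, 6.16, 2.71 and 2.15 FPM and the WT-HFD kidneys 6.94, 3.93, 2.73 and 3.58 FPM. The KO-SFD kidneys held 0.193, 0.216, 0.0511 and 0.437 FPM and the KO-HFD kidneys 0.217, 0.216, 0.443 and 0.402 FPM. The highest KO kidney (0.443 FPM) lay below the lowest WT kidney (2.15 FPM), so the genotypes did not overlap on either diet.

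In counts, a WT kidney gave 48 to 150 Camk2b fragments and 725 in all 8 libraries, and a KO kidney 1 to 8 fragments and 41 in all 8. The group means were 4.79 ± 2.85 FPM (SD, n = 4) in WT-SFD, 4.30 ± 1.83 in WT-HFD, 0.224 ± 0.159 in KO-SFD and 0.320 ± 0.120 in KO-HFD mice. The mean was 21.4 times higher in WT than in KO kidneys on SFD and 13.4 times higher on HFD. The fitted log2 fold change, KO minus WT, was −4.38 (SE 0.54) on SFD and −3.75 (SE 0.52) on HFD, with 95% intervals from −5.54 to −3.23 and from −4.85 to −2.65. Leaving out any 1 kidney kept it between −4.90 and −4.00 on SFD and between −3.92 and −3.41 on HFD.

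These differences are those by which the family was chosen, so no test is attached. Over all genes edgeR called 2 of 15034 on SFD (0.0133%) and 1 on HFD (0.00665%). Camk2b is among them, and is the 1 on HFD, so these shares are no background apart from it. The counts fell to 0 without KO-SFD replicate 2 and without any 1 of 7 of the 8 HFD libraries. Also, 2.09% of all genes on SFD and 0.678% on HFD were lower in every KO than in every WT kidney. Nothing is read from the place of Camk2b in these shares.

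The spread within WT kidneys was wide. The coefficient of variation of Camk2b was 59.5% in WT-SFD and 42.7% in WT-HFD mice, against 3.97% and 12.8% for Camk2d and 5.16% and 2.97% for Camk2g in the same libraries. The highest Camk2b value was in replicate 1 of both WT groups.

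**Figure D1:**
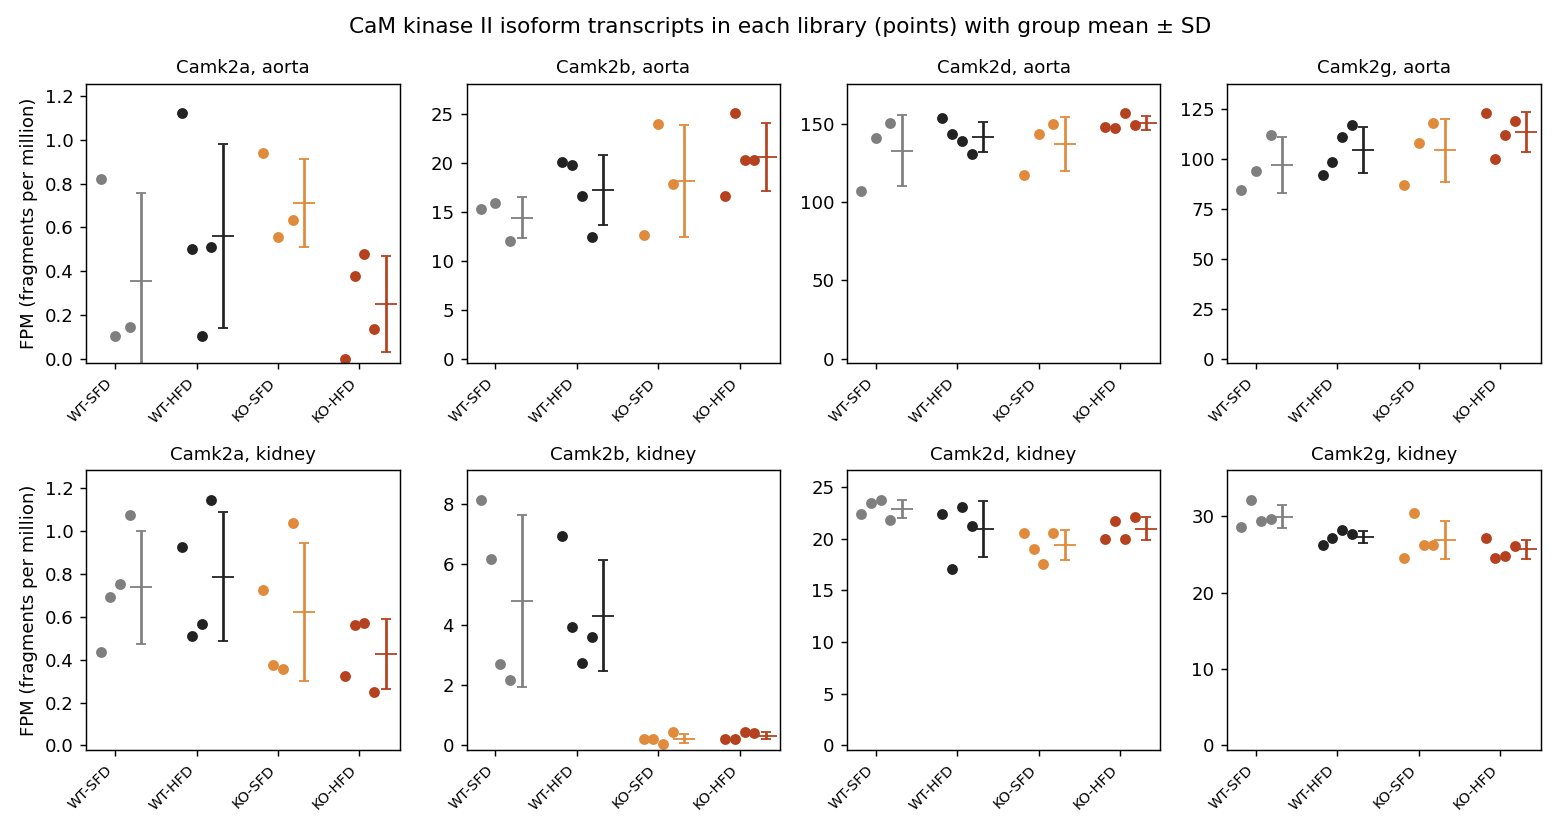
Levels of the 4 CaM kinase II genes in FPM (y axes start near 0 and differ between panels) in the aorta (top) and the kidney (bottom), by genotype and diet (x axis). Each point is 1 mouse, the horizontal line is the group mean and the bar its SD (the lower end for Camk2a in WT-SFD aortae runs below 0 and is not drawn); Camk2b in the kidney is the panel in which KO points, at 0.0511 to 0.443 FPM, lie below all WT points, at 2.15 to 8.13 FPM, on both diets.

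Aortic Camk2b did not share the kidney pattern. The WT-SFD aortae held 15.3, 15.9 and 12.0 FPM and the KO-SFD aortae 12.6, 24.0 and 17.9 FPM. The WT-HFD aortae held 20.1, 19.8, 16.6 and 12.4 FPM and the KO-HFD aortae 16.6, 25.1, 20.2 and 20.2 FPM. The genotypes overlapped on both diets, and the KO mean was the higher one on each.

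The log2 fold change of aortic Camk2b, KO minus WT, was 0.33 (SE 0.24, 95% interval −0.17 to 0.83) on SFD and 0.25 (SE 0.20, interval −0.17 to 0.68) on HFD. Neither passed edgeR's quasi-likelihood test over all genes (adjusted p = 0.833 and 0.999), a test that called 0.0811% of genes (12 of 14796) on SFD and 0.0811% (12) on HFD. Leaving out any 1 aorta moved the value between 0.11 and 0.53 on SFD and between 0.13 and 0.35 on HFD. The intervals leave room for a change of either sign. The difference between tissues itself was not tested, since they were sequenced separately.

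A few mice carried the same animal number in both tissues. The WT-SFD mouse that was replicate 1 of both had 15.3 FPM of Camk2b in the aorta and 8.13 FPM in the kidney. The KO-SFD mouse that was aortic replicate 1 and renal replicate 3 had 12.6 FPM in the aorta and 0.0511 FPM, a single fragment, in the kidney. The KO-HFD mouse that was aortic replicate 3 and renal replicate 2 had 20.2 FPM in the aorta and 0.216 FPM in the kidney. In both KO mice Camk2b lay within or just above the WT range of their diet in the aorta and below it in the kidney of the same animal.

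Diet had no effect on Camk2b that passed the test. In the kidney, HFD minus SFD was −0.14 on the log2 scale in WT (SE 0.41, 95% interval −1.001 to 0.72, edgeR adjusted p = 0.995) and 0.49 in KO mice (SE 0.68, interval −0.94 to 1.92). Camk2b passed the filter in the kidney through the WT libraries, so the KO value is given without a test, as is the diet effect in KO minus that in WT, 0.63 (SE 0.79). Leaving out any 1 kidney put them between 0.17 and 1.008 and between 0.25 and 1.15. In the aorta the diet effect was 0.26 in WT (SE 0.22, interval −0.21 to 0.73, adjusted p = 0.603) and 0.18 in KO mice (SE 0.22, interval −0.28 to 0.65, adjusted p = 0.867). With 1 to 8 fragments per KO kidney the intervals are wide there, and a p that misses the threshold does not show that the diets gave the same level.

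Camk2d, the delta subunit gene, was the most counted member in the aorta. Its level was 107, 141 and 151 FPM in WT-SFD, 154, 143, 139 and 131 in WT-HFD, 117, 144 and 150.01 in KO-SFD and 148, 147, 157 and 149 in KO-HFD aortae. The groups overlapped, and the lowest values, 107 and 117 FPM, belonged to replicate 1 of WT-SFD and of KO-SFD, the 2 aortae with the lowest smooth muscle marker sums. The log2 fold change, KO minus WT, was 0.043 (SE 0.13, 95% interval −0.23 to 0.32, edgeR adjusted p = 0.966) on SFD and 0.087 (SE 0.11, interval −0.15 to 0.33, adjusted p = 0.999) on HFD.

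In the kidney Camk2d was 22.4, 23.5, 23.8 and 21.8 FPM in WT-SFD, 20.6, 19.0, 17.5 and 20.6 in KO-SFD, 22.4, 17.1, 23.1 and 21.3 in WT-HFD and 20.02, 21.8, 20.01 and 22.1 in KO-HFD mice. On SFD all 4 KO kidneys lay below all 4 WT kidneys, as for the 2.09% of all genes given above, by −0.24 on the log2 scale (SE 0.098), and on HFD the groups overlapped with a difference of 0.00031 (SE 0.098). These genotype values come from the contrast behind the choice of the genes and are described without a test. The difference was small beside that of Camk2b.

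Camk2g, the gamma subunit gene, was 84.3, 93.9 and 112 FPM in WT-SFD, 91.7, 98.6, 111 and 117 in WT-HFD, 87.1, 108 and 118 in KO-SFD and 123, 99.8, 112 and 119 in KO-HFD aortae. All groups overlapped. The log2 fold change, KO minus WT, was 0.11 on SFD (SE 0.14, 95% interval −0.19 to 0.42, edgeR adjusted p = 0.909). On HFD it was 0.12 (SE 0.12, interval −0.15 to 0.38, adjusted p = 0.999). Leaving out any 1 aorta moved the value between 0.022 and 0.23 on SFD and between 0.057 and 0.17 on HFD.

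Renal Camk2g was 28.6, 32.2, 29.4 and 29.7 FPM in WT-SFD, 26.3, 27.2, 28.2 and 27.7 in WT-HFD, 24.6, 30.4, 26.2 and 26.3 in KO-SFD and 27.2, 24.6, 24.8 and 26.1 in KO-HFD mice. KO minus WT was −0.16 (SE 0.080) on SFD and −0.091 (SE 0.081) on HFD, with overlapping groups and no test. All 4 WT-HFD kidneys lay below all 4 WT-SFD kidneys, as for 1.99% of all genes, but the diet effect of −0.13 (SE 0.080, 95% interval −0.30 to 0.038) did not pass edgeR's test (adjusted p = 0.808). In KO kidneys the diet effect was −0.066 (SE 0.081, interval −0.24 to 0.10, adjusted p = 0.727), with overlapping groups. Leaving out any 1 kidney moved that value between −0.11 and −0.0021.

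Camk2a, the alpha subunit gene, was close to the detection limit. An aorta gave 0 to 11 fragments and 58 in all 14, with 0 in KO-HFD replicate 1, and the gene did not pass the filter there. The kidneys gave 5 to 24 fragments. The level was 0.434, 0.691, 0.754 and 1.08 FPM in WT-SFD, 0.925, 0.510, 0.568 and 1.15 in WT-HFD, 0.723, 0.377, 0.358 and 1.04 in KO-SFD and 0.325, 0.562, 0.570 and 0.251 in KO-HFD kidneys. The groups overlapped, and KO minus WT, described without a test, was −0.26 (SE 0.41) on SFD and −0.88 (SE 0.43) on HFD, with the SFD value between −0.60 and −0.020 when any 1 kidney was left out. The diet effect was 0.089 (SE 0.40, 95% interval −0.76 to 0.94, edgeR adjusted p = 1) in WT and −0.54 (SE 0.44, interval −1.47 to 0.39, adjusted p = 0.584) in KO kidneys, the latter between −0.73 and −0.19 without any 1 kidney.

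Of the members tested, none passed edgeR's test for diet in either tissue, for genotype in the aorta or for the difference of the diet effects. The share of all genes called was 0% for diet in WT aortae, in KO aortae and for the difference of the diet effects in either tissue, 0.911% for diet in WT kidneys and 2.3% for diet in KO kidneys. At an unadjusted p under 0.05 edgeR counted 2464 genes for diet in WT aortae, 1106 in KO aortae, 606 for the aortic and 486 for the renal difference of the diet effects, and DESeq2 called 666, 8, 2 and 1. For the difference of the diet effects Camk2b, Camk2d and Camk2g were at −0.075 (SE 0.31), 0.044 (SE 0.17) and 0.0045 (SE 0.19) in the aorta, and Camk2a, Camk2d and Camk2g at −0.63 (SE 0.59), 0.24 (SE 0.14) and 0.066 (SE 0.11) in the kidney. The edgeR adjusted p was 1 in all 6 cases. DESeq2 called no member in these comparisons either.

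Without the 4 adipocyte-rich SFD aortae, with 1 aorta left in each SFD group, aortic Camk2b was 0.58 for KO against WT on SFD, 0.53 for diet in WT and −0.33 for the difference of the diet effects, and edgeR called no member in any aortic comparison. Without WT-SFD replicate 3 the diet value of Camk2b in WT was 0.15. The aortic values of Camk2d and Camk2g were small enough for several of them to change sign. The marker sums differed most between SFD and HFD aortae. The smooth muscle sum was 9919 to 15355 FPM in WT-SFD and 15831 to 16532 FPM in WT-HFD aortae, without overlap. In KO aortae the smooth muscle sums of the diets overlapped. The part of the markers in the aortic diet values was not tested beyond leaving the 4 adipocyte-rich libraries out and a fit with the adipocyte markers as covariate.

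**Figure D2:**
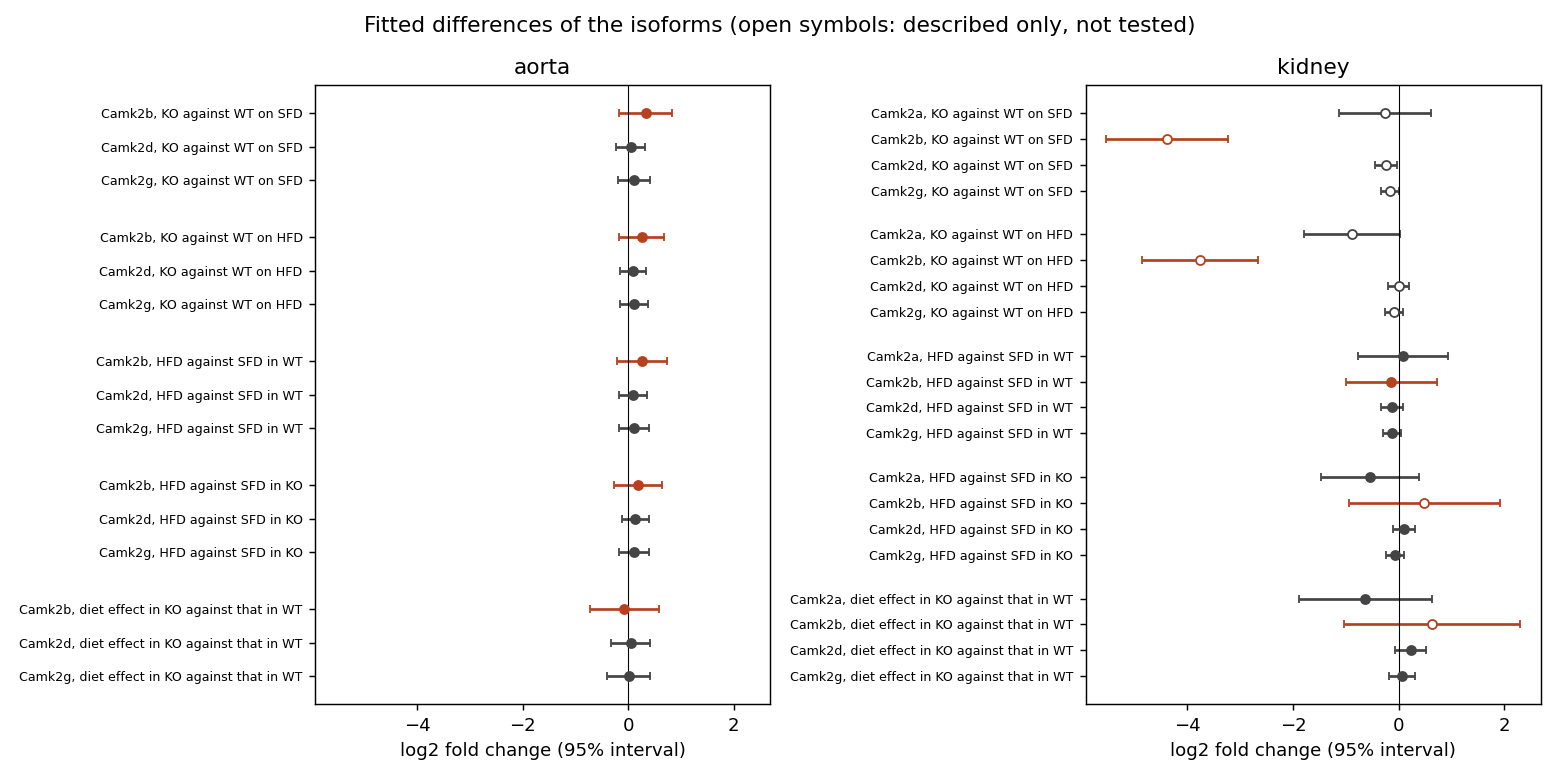
Fitted log2 fold changes (x axis) of the members that passed the filter in the aorta (left) and the kidney (right), each with its 95% interval, for each comparison named on the y axis as first against second group. Open symbols are values described without a test; only the 2 renal KO-against-WT values of Camk2b, at −4.38 and −3.75, lie beyond 2 in size.

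The make-up of the family was compared per length, since a longer transcript yields more fragments at the same abundance. Divided by the length of all exons of the gene (9125 bases for Camk2b, 22493 for Camk2d and 6401 for Camk2g), levels in FPKM were highest for Camk2g in every group. In WT-SFD aortae the mean share of the summed FPKM of the 4 genes was 66.6% for Camk2g, 26.0% for Camk2d, 7.10% for Camk2b and 0.231% for Camk2a. In WT-SFD kidneys the shares were 74.1%, 16.1%, 8.15% and 1.58% in the same order. The share of Camk2b lay between 5.15% and 8.49% in single WT-SFD aortae and between 3.94% and 13.9% in single WT-SFD kidneys, so the tissues overlapped. The summed level of the 4 genes was 22.6 FPKM in the aorta and 6.32 FPKM in the kidney.

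In KO kidneys Camk2b made up 0.471% of the family on SFD and 0.698% on HFD, and Camk2g 81.1% and 79.6%. Shares sum to 100, so the share of Camk2g was higher there although its level in FPM was not. The summed level was 5.17 FPKM in KO-SFD and 5.03 FPKM in KO-HFD kidneys, against 6.32 and 5.78 FPKM in WT-SFD and WT-HFD kidneys. In KO aortae the share of Camk2b was 8.04% on SFD and 8.50% on HFD.

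The gap between Camk2g and Camk2d depended on the length used. By the longest coding transcript, the WT-SFD aorta had 48.5% Camk2g and 44.6% Camk2d, which is near equal, while the WT-SFD kidney had 59.7% and 30.6%. The larger weight of Camk2g in the kidney was seen with both lengths. By mean share Camk2b was the third and Camk2a the fourth gene in WT groups of both tissues with both lengths. In KO kidneys Camk2b was the fourth by mean share, below Camk2a. On HFD these means were close by the longest transcript, at 0.731% for Camk2b and 0.796% for Camk2a. With all exons, KO-HFD replicate 4 had the reverse order, 0.044 FPKM of Camk2b and 0.034 FPKM of Camk2a.

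**Figure D3:**
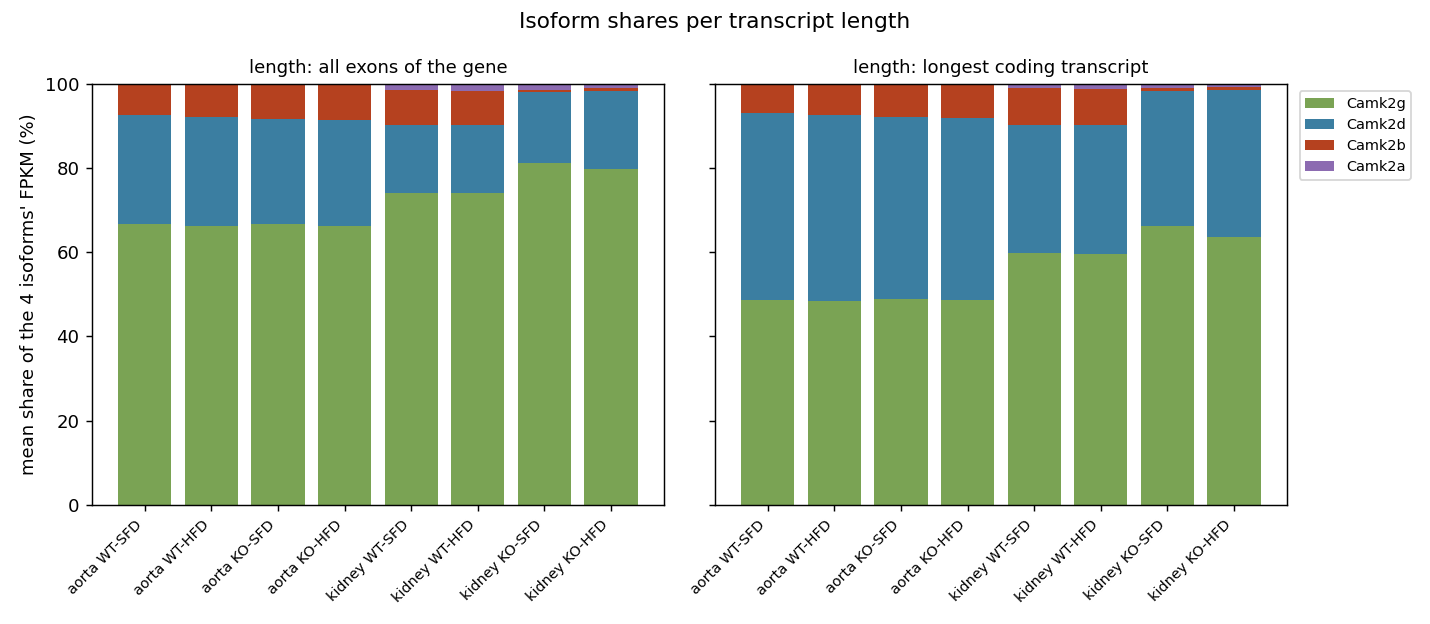
Mean share of each gene in the summed FPKM of the 4 CaM kinase II genes (y axis, percent) by tissue and group (x axis), with all exons of the gene (left) or its longest coding transcript (right) as length. The Camk2b segment, 8.15% in WT-SFD kidneys on the left, shrinks to 0.471% in KO-SFD kidneys, while the aortic bars are alike between groups.

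The ratio of Camk2g to Camk2d in FPM, which does not depend on scaling between libraries, differed between the tissues, which were sequenced separately, and in no group comparison passed its test. Its mean was 0.732, 0.745, 0.760 and 0.753 in WT-SFD, WT-HFD, KO-SFD and KO-HFD aortae and 1.31, 1.32, 1.39 and 1.23 in the kidneys in the same order. Single aortae ranged from 0.597 to 0.896 and single kidneys from 1.13 to 1.60, without overlap. An exact two-sided permutation test of the 6 comparisons (genotype in the aorta on each diet, diet in each genotype of both tissues) gave p between 0.2 and 0.971. All 6 had an adjusted p of 0.971, and the smallest p the exact test allows is 0.1 for 3 against 3 mice and 0.0286 for the others. Adjusted over 6 comparisons, a single one could not pass 0.05 on its own, so the missing calls decide nothing about the ratio. The largest log2 difference, −0.17 in KO kidneys, was the one with p = 0.2 by the exact test.

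Around CaM kinase II, 67 genes of 6 lists were read: inhibitor proteins and phosphatases, calmodulins and small calmodulin binders, other calmodulin-dependent kinases, calcineurin and its partners, calcium channels, pumps and exchangers, and downstream transcription factors and deacetylases. Of these, 58 were tested in the aorta and 57 in the kidney. Only Camk1g passed edgeR's test, in the 2 renal diet comparisons, where 1 of 57 genes stands beside the 0.911% (WT) and 2.3% (KO) of all genes called. No gene of the 6 lists passed in KO against WT in either tissue, where at most 0.0811% of all genes did.

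Camk1g, a gene of the CaM kinase I family, rose on HFD in the kidneys of both genotypes. It was at 1.79, 1.38, 1.03 and 1.03 FPM in WT-SFD, 4.81, 5.66, 3.41 and 4.06 in WT-HFD, 1.74, 2.32, 0.869 and 2.13 in KO-SFD and 4.29, 4.07, 6.58 and 5.23 in KO-HFD kidneys. Every HFD kidney lay above every SFD kidney of its genotype, as for 3.02% of all genes in WT and 5.02% in KO mice. The log2 fold change was 1.79 (SE 0.29, edgeR adjusted p = 0.00307) in WT and 1.51 (SE 0.28, adjusted p = 0.00642) in KO mice, and the diet effects differed by −0.28 (SE 0.39, adjusted p = 1). In the aorta Camk1g gave 0 to 2 fragments. Marker sums of some renal tubule cells also separated the diets, as given below, and their part in the Camk1g values was not tested.

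Among the inhibitors, Camk2n1, a small protein that binds and blocks the active kinase, was at 198 to 215 FPM in the group means of the kidney and 37.0 to 53.5 FPM in those of the aorta. Per length of all exons that is 44.5 FPKM in WT-SFD kidneys, above the 6.32 FPKM of the 4 kinase genes together, and 8.69 FPKM in WT-SFD aortae, below the 22.6 FPKM of the kinase genes. The size of these gaps depends on the length used. By the longest coding transcript Camk2g alone was at 8.09 FPKM in WT-SFD kidneys and 26.1 FPKM in WT-SFD aortae. In WT aortae the diet value was 0.47 (SE 0.17), with an edgeR adjusted p of 0.181. It was 0.088 (adjusted p = 0.952) without the 4 adipocyte-rich aortae and 0.71 (adjusted p = 0.0105) without WT-SFD replicate 3. Camk2n2, its relative, was 0.40 (SE 0.22, adjusted p = 0.635) in KO against WT kidneys on SFD, and Ppm1f, a phosphatase that removes the activating phosphate, 0.48 (SE 0.21, adjusted p = 1) for the aortic difference of the diet effects, or 0.18 without the adipocyte-rich aortae.

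Calm3, a calmodulin gene, was 0.42 on the log2 scale with diet in WT aortae (SE 0.11, edgeR adjusted p = 0.0824), with 176 ± 22.3 FPM (SD, n = 3) on SFD and 234 ± 10.4 FPM (n = 4) on HFD. DESeq2 gave an adjusted p of 0.0128, and edgeR gave 0.52 (adjusted p = 0.00881) without WT-SFD replicate 3 and 0.23 (adjusted p = 0.837) without the 4 adipocyte-rich aortae. Calm2, which also codes for calmodulin, was 0.23 in KO against WT kidneys on SFD (SE 0.089, adjusted p = 0.545). The neuronal calmodulin binder Pcp4 did not pass the filter in either tissue, and Nrgn, on chromosome 9, was at 0 throughout.

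Atp2a1, a calcium pump of the sarcoplasmic reticulum, was −1.09 (SE 0.29, edgeR adjusted p = 0.058) with diet in KO kidneys, with a level of 0.889 ± 0.203 FPM (SD, n = 4) on SFD and 0.417 ± 0.0255 FPM (n = 4) on HFD, and −1.61 (SE 0.40, adjusted p = 1) for the renal difference of the diet effects. Itpr2, a calcium release channel of the endoplasmic reticulum, was −0.84 (SE 0.24, edgeR adjusted p = 0.0897) with diet in WT aortae and 0.33 (SE 0.096, adjusted p = 0.0908) with diet in KO kidneys, where DESeq2 gave an adjusted p of 0.0373. Aortic Itpr2 was 93.03 ± 33.8 FPM (SD, n = 3) in WT-SFD and 52.1 ± 3.81 FPM (n = 4) in WT-HFD mice. Its aortic diet value was −0.11 (adjusted p = 0.932) without the 4 adipocyte-rich aortae and −1.09 (adjusted p = 0.00273) without WT-SFD replicate 3, the WT-SFD aorta with low adipocyte markers, and DESeq2 gave an adjusted p of 0.0308 in the aorta. Camkk2, which activates other CaM kinases, was 0.38 (SE 0.17, adjusted p = 0.29) with diet in WT aortae, 0.64 (adjusted p = 0.0133) without WT-SFD replicate 3 and −0.042 (adjusted p = 0.982) without the adipocyte-rich aortae. Camk4, a nuclear calmodulin-dependent kinase, was 0.74 (SE 0.24, adjusted p = 0.776) in KO against WT aortae on SFD. Ppp3cb, a catalytic subunit of calcineurin, was 0.29 (SE 0.091, adjusted p = 0.73) in KO against WT aortae on HFD, and Orai1, a store-operated calcium channel, 0.50 (SE 0.16, adjusted p = 0.129) with diet in WT aortae.

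Over all 6 lists the median log2 fold change, KO minus WT, was −0.068 in the kidney on SFD and 0.0046 on HFD, against 0.0011 and 0.0022 for all genes. In the aorta it was −0.0030 on SFD and 0.015 on HFD, against −0.025 and −0.0074 for all genes. For diet it was 0.046 in WT and 0.090 in KO kidneys, against −0.0040 and −0.0041 for all genes, and 0.018 in WT and 0.052 in KO aortae, against −0.012 and −0.0016 for all genes.

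The region around Camk2b was read next, since the gene shares chromosome 11 with Egfr. Of 73 annotated genes whose start lies within 1 Mb of that of Camk2b, 38 were tested in the aorta and 40 in the kidney, and none passed an edgeR adjusted p of 0.05 in any comparison. At an unadjusted p under 0.05, 11 of 40 differed between KO and WT kidneys on SFD (27.5%, against 8.37% of all genes) and 8 of 40 on HFD (20% against 1.65%). In the aorta it was 1 of 38 on SFD (2.63% against 6.14%) and 6 of 38 on HFD (15.8% against 5.04%). The smallest adjusted p was 0.453 and 1 in the kidney on SFD and HFD and 0.501 and 0.107 in the aorta. Aortic log2 fold changes of these genes, KO minus WT, ran from −1.34 (Pgam2) to 6.41 (Gm11983) on SFD. On HFD they ran from −0.43 (Rhbdd3) to 6.71 (Gm11983). Renal ones ran from −0.71 (Myo1g) to 1.89 (Npc1l1) on SFD and from −1.27 (Gm11962) to 1.82 (Npc1l1) on HFD.

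Adcy1, a calmodulin-stimulated adenylyl cyclase (ENSMUSG00000020431, chr11:7063489-7178506, plus strand), starts 1.094 Mb from Camk2b. In KO aortae it was at 198 to 388 FPM and in WT aortae at 3.03 to 8.36 FPM, without overlap. The log2 fold change was 5.84 (SE 0.23, edgeR adjusted p = 2.92e-09) on SFD and 5.38 (SE 0.19, adjusted p = 5.99e-10) on HFD. In the kidney the values lay in the opposite direction, with 4.49 to 13.9 FPM in KO and 14.1 to 27.0 FPM in WT mice and log2 fold changes of −1.04 (SE 0.31, adjusted p = 0.453) and −1.42 (SE 0.32, adjusted p = 1). The renal groups did not overlap on either diet, as for 2.09% of all genes on SFD and 0.678% on HFD, and the differences did not pass the test. Whether the position of Camk2b on chromosome 11 has a part in its values was not tested.

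**Figure D4:**
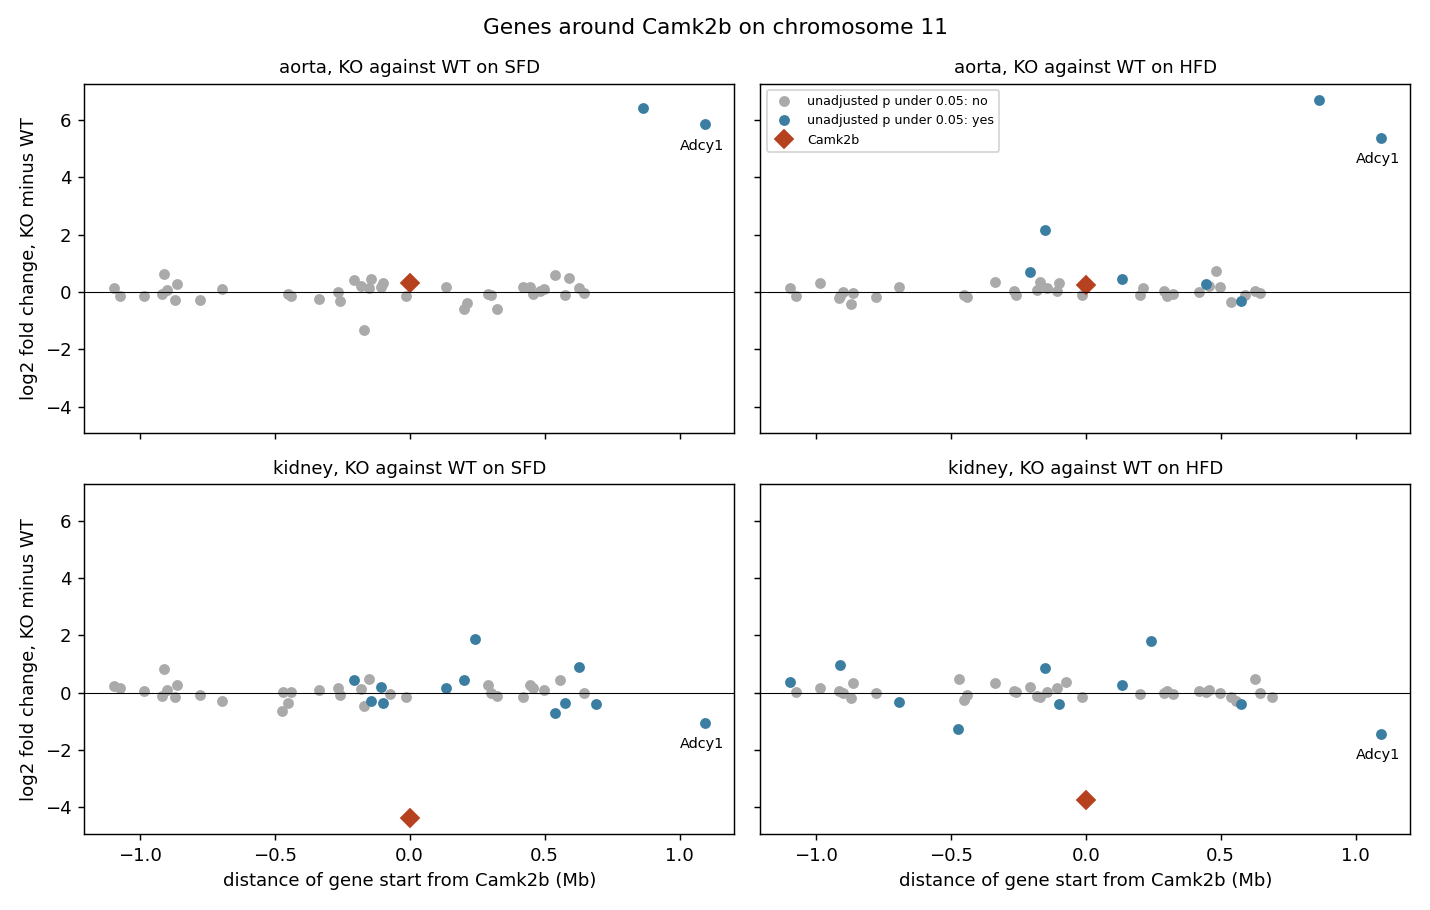
Log2 fold change, KO minus WT (y axis), of the tested genes around Camk2b on chromosome 11 against the distance of their start from that of Camk2b in Mb (x axis), for both tissues and diets. Blue points have an unadjusted p under 0.05; Camk2b (diamond) is at −4.38 and −3.75 in the kidney and 0.33 and 0.25 in the aorta, and Adcy1, at 1.094 Mb, is at 5.84 and 5.38 in the aorta and −1.04 and −1.42 in the kidney.

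Cell type markers were read beside the Camk2b values, since bulk tissue holds many cell types. No gene of the 16 marker lists passed edgeR's test in KO against WT in either tissue. The 10 neuron markers, of which 3 were tested, summed to 5.12 to 12.7 FPM in WT and 8.95 to 13.9 FPM in KO kidneys, led by Uchl1, with Th at 0 in all and Tubb3 in the empty end of chromosome 8. The 7 smooth muscle markers summed to 110 to 149.7 FPM in WT and 108 to 159.9 FPM in KO kidneys. For both lists the WT and KO ranges overlapped.

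On SFD the 5 podocyte markers, led by Podxl, summed to 171 to 214 FPM in KO and 226 to 313 FPM in WT kidneys, without overlap, and on HFD to 205 to 306 FPM in KO and 223 to 323 FPM in WT kidneys. The 3 distal convoluted tubule markers also separated the genotypes on SFD, at 474 to 592 FPM in KO and 634 to 809 FPM in WT kidneys, and the 3 thick ascending limb markers did so the other way, at 6912 to 7467 FPM in KO and 5016 to 6838 FPM in WT kidneys. On HFD both lists overlapped between genotypes. The part of these cell types in the renal values of Camk2b was not tested. In the aorta the leucocyte markers, led by Ptprc, summed to 26.0 to 75.4 FPM in KO and 17.7 to 18.8 FPM in WT mice on SFD, and the intercalated cell list, carried by Slc4a1, which red cells also express, to 13.9 to 33.9 FPM in KO and 6.03 to 11.5 FPM in WT mice on HFD, both without overlap. Lists of the proximal tubule on both diets and of the distal convoluted tubule on HFD also separated the aortic genotypes, at sums of at most 9.38 FPM. Their part in the aortic values was not tested. With diet, in the kidney, 1 proximal tubule marker in each genotype, and 2 distal convoluted tubule markers and 1 adipocyte marker in KO mice, were called higher on HFD. Sums in KO kidneys on HFD were lower without overlap for the thick ascending limb (2969 to 5602 against 6912 to 7467 FPM). They were higher for the distal convoluted tubule (644 to 1146 against 474 to 592 FPM). In WT kidneys the intercalated cell sum was lower on HFD without overlap (163 to 177 against 184 to 269 FPM).

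Genes whose levels ran most like those of a member were found by Pearson's r of log2 CPM over libraries. These are descriptions over libraries that share groups and depth. Over the 16 kidneys, which fall into a WT and a KO cluster for Camk2b, the 5 highest were Paip1 (r = 0.866), Terf1 (0.792), Gm11612 (0.788), Med7 (0.771) and Bbs5 (0.761). Their levels differed far less between genotypes than that of Camk2b, for example 71.8 FPM in WT and 55.8 FPM in KO kidneys for Paip1. Within the 8 WT kidneys, where Camk2b ran from 2.15 to 8.13 FPM, the highest were Plat (0.965), Kank3 (0.955), Tmem165 (0.952), Fam167a (0.95) and Dos (0.946).

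In the 14 aortae the genes most like Camk2b were Fbn1 (r = 0.905), the fibrillin of elastic fibres, Tm6sf1 (0.872) and Isg15 (0.87). Those most like Camk2d were Kcnmb1 (0.961), a subunit of the calcium-activated potassium channel of smooth muscle, Dstn (0.94) and Itga8 (0.938), and those most like Camk2g Atp10a (0.93), Lysmd4 (0.923) and Tpm2 (0.921), a tropomyosin. In the kidney they were Lrig2 (0.896), Spice1 (0.879) and Ptprk (0.848) for Camk2d, Ccm2 (0.838), Zfp511 (0.796) and Dhrs13 (0.787) for Camk2g, and Mnda (0.733), Pnp2 (0.721) and Gemin5 (0.719) for Camk2a. Ccm2 is one of the genes within 1 Mb of Camk2b, at 0.577 Mb. It was at 26.9 FPM in WT and 20.6 FPM in KO kidneys, and its r with Camk2g is over both genotypes. The values for Camk2a rest on 5 to 24 fragments per kidney.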

How the data were processed

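RNA of single mice was depleted of ribosomal RNA and sequenced paired-end (100 bases per read). Per the submitters' processing notes and methods, the authors trimmed with cutadapt, aligned to mm10 with TopHat and counted per gene with featureCounts, and deposited raw counts without normalisation. The strand setting, counting annotation and treatment of multi-mapping reads are not given in the sources used here. The members and lists were chosen with earlier results of these data known. Counts were scaled by TMM, filtered with filterByExpr and fitted in R 4.3.3 with edgeR 4.0.16 (glmQLFit, glmQLFTest), all groups of a tissue together, with Benjamini-Hochberg adjustment over all genes tested (14796 aorta, 15034 kidney) and calls at an adjusted p under 0.05. Intervals use the t distribution of the fit. Mice are separate animals. Positions, lengths and sequences are from GENCODE vM21 (40254 of 41128 genes matched). Named are the members, Egfr, Adcy1 and the genes at the ends of the fold range around Camk2b. Also named are genes called in a pathway list or otherwise the 2 with the smallest p per list and tissue. For markers it is the most abundant gene of a list described, and for likeness the genes most like a member by r of log2 CPM (prior count 2). Not all of them are printed. List genes at 0 or under the filter are named as such. The pipeline was tested on simulated data. Alternatives were DESeq2 1.42.0, RLE factors, library totals, no filter, an adjusted p of 0.001, only the groups compared, an adipocyte covariate, a pseudocount of 0.5 FPM for the ratio and leaving out each library. Leaving out 4 SFD aortae, the likeness in 8 WT kidneys and the naming of the range ends around Camk2b were added after the data had been seen.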

Additional observations from a re-analysis of the deposited data

How the results depend on the processing

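Of 1492 values under alternatives for 100 results, 1374 were classed as the same. For tested values this meant the same direction and side of the threshold. Gene counts in this class could still move, for example from 346 to 403 for diet in KO kidneys. The class also held renal Camk2d in KO against WT on HFD. It has no test and turned sign, at 0.00031 in the main fit and down to −0.018 with other settings. No member was called in any tested comparison under any alternative, and renal Camk2b in KO against WT kept its sign in all. The 48 changes of sign among tested values had adjusted p of 0.05 or more. With library totals, which shift the median of all aortic genes by 0.29 (KO against WT on SFD), 0.11 and −0.11 (diet in WT and KO) and −0.22 (difference of diet effects), that difference was −0.19 for Camk2d and −0.21 for Camk2g, and −0.026 for Camk2g without the filter. With the adipocyte covariate Camk2d was −0.0095 for KO against WT on SFD and −0.057 for diet in WT aortae, and Camk2g −0.029 and −0.015 for diet in WT and KO aortae. Without the 4 adipocyte-rich aortae the same 4 values were −0.00545, −0.086, −0.095 and −0.059, and Camkk2 with diet in WT aortae was −0.042. The cause was not tested.

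Leaving out 1 library moved the diet effect from −0.15 to 0.32 (Camk2a, WT kidney), from −0.48 to 0.25 (Camk2b, WT kidney), from −0.016 to 0.44 (Camk2b, KO aorta) and from −0.041 to 0.19 (Camk2d, WT aorta), and aortic Camk2d in KO against WT on SFD from −0.090 to 0.14. The aortic difference of diet effects ran from −0.28 to 0.15 (Camk2b), −0.058 to 0.18 (Camk2d) and −0.11 to 0.093 (Camk2g). The renal difference ran from −0.86 to −0.28 (Camk2a), 0.15 to 0.29 (Camk2d) and 0.026 to 0.13 (Camk2g). Renal Egfr ran from −0.010 to 0.17 on SFD and −0.19 to 0.025 on HFD. Renal Camk2d in KO against WT on HFD, without a test, ran from −0.090 to 0.049. The log2 ratio of Camk2g to Camk2d ran from −0.0075 to 0.11 and −0.073 to 0.12 for genotype in the aorta on SFD and HFD. For diet it ran from −0.082 to 0.11 and −0.066 to 0.032 in WT and KO aortae. In WT kidneys the diet range was −0.089 to 0.058 and in KO kidneys −0.24 to −0.10.

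Of the pathway genes, DESeq2 called 2 and the unfiltered fit 1 for diet in WT aortae, where leaving out 1 library gave 0 to 7 (7 without WT-SFD replicate 3). For diet in KO kidneys DESeq2 called 2, an adjusted p of 0.001 left 0 there and 0 in WT kidneys, and leaving out 1 library gave 1 to 2 (2 without KO-SFD replicate 4). Counts over all genes moved more: KO against WT called 2 to 28 genes on SFD and 5 to 40 on HFD in the aorta and 0 to 26 and 0 to 1 in the kidney, diet 0 to 1801 in WT and 0 to 8 in KO aortae (1801 without WT-SFD replicate 3), and 23 to 263 in WT and 48 to 695 in KO kidneys. Depth limits Camk2a in both tissues and Camk2b in KO kidneys, where 1 to 8 fragments leave wide intervals for diet.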
